A study of Mus musculus with 198 samples.

Results

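The Ly6 genes examined here were Ly6a, Ly6c1, Ly6e and Ly6h, and every probe that the array annotation gives to one of these symbols was taken. No probe with the symbol Ly6a was found in the annotation used, so Ly6a was not analysed here. The other 3 genes, of 16593 with a probe of 1 symbol, had 5 probes of 25697 in all, with 1 probe for Ly6c1 (ILMN_1254927), 1 for Ly6e (ILMN_2984828) and 3 for Ly6h (ILMN_1241465, ILMN_1253982 and ILMN_2748897). Expression was measured with Illumina MouseRef-8 bead arrays in striatum (98 arrays of 97 strains) and hippocampus (100 arrays of 99 strains). The mice were of the Hybrid Mouse Diversity Panel (HMDP), a collection of classical inbred strains and recombinant inbred (RI) strains. The methods give male mice for the behavioural work, and the labels do not give the sex of the arrayed animals. The RI sets were BXD (from C57BL/6J and DBA/2J, 30 strains in each tissue), AXB/BXA (from A/J and C57BL/6J, 28 strains in each tissue) and BXH (from C57BL/6J and C3H/HeJ, 10 strains in striatum and 11 in hippocampus). A further 28 strains in striatum and 29 in hippocampus were inbred strains. A strain labelled B6Cc3 had 2 arrays per tissue, which were averaged as 1 strain. Both tissues were available for 97 strains. Per the methods, the strains of the panel all went through fear conditioning with foot shocks and later memory tests, and tissue was taken after euthanasia. Neither the methods nor the labels state that the arrayed animals, B6Cc3 among them, were the conditioned ones. Whether this exposure is shared by every array compared here is therefore not known. The groups were defined by tissue or by strain descent.

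Ly6 proteins are small proteins with a three-finger fold that are held on the outer cell membrane by a lipid anchor, and many of their genes lie in 1 cluster on mouse chromosome 15. Ly6c1 encodes an antigen found on brain endothelial cells and on monocytes. Ly6e encodes a widely expressed, interferon-inducible family member that is known as a receptor in placental cell fusion and as a restriction factor for some viruses. Ly6h is expressed mainly in brain, and its product binds nicotinic acetylcholine receptors and lowers their activity at the cell surface. Ly6c1 has a near-identical copy, Ly6c2, for which no probe was found in the annotation, so the share of Ly6c2 in the Ly6c1 signal is uncertain. In the RefSeq annotation Ly6e, Ly6c1 and Ly6h follow each other in this order, with 25 genes from Ly6e to Ly6h inclusive, 14 of them protein-coding.

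Levels are given as log2 of the background-corrected, quantile-normalized signal. The level of one probe was not set against that of another, since probes differ in how brightly they bind. Each strain has a single array per tissue, so no error within a strain can be given and neighbouring strains in an order cannot be told apart. The only repeat was the B6Cc3 pair, whose 2 arrays differed by 0.44 in striatum and 0.21 in hippocampus for Ly6c1, and by 0.32 in striatum and 0.17 in hippocampus for Ly6e (log2). For the Ly6h probes the pair differed by 0.01 to 0.34 in striatum and by 0.02 to 0.30 in hippocampus. Over all 11746 probes detected in both tissues, the median absolute difference of that pair was 0.36 in striatum and 0.27 in hippocampus. The source of the 2 B6Cc3 arrays is not given in the labels.

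Several arrays bear on the results. The hippocampus array of AXB19b had 22.4% of probes detected, and its rank correlation with the rest of that tissue was 0.61 in the median, against at least 0.91 for every other array. The striatum arrays of SM and NZW had median rank correlations of 0.86 and 0.89, against at least 0.92 for the others. These 3 arrays are called the arrays that stand apart below, and results that rest on them are given with and without them. Over the 400 probes that agreed best between tissues, 91 of 97 strains were each other's best match in both directions. The exceptions were AXB15, AXB19, AXB19b, BXD24a, BXD42 and SM. The hippocampus array of AXB15 matched the striatum array of AXB19b best (r = 0.86), and the hippocampus array of AXB19 matched the striatum array of AXB15 best (r = 0.92). The 5 striatal marker probes (Drd1, Drd2 and Ppp1r1b) were all at least 2-fold higher in striatum than in hippocampus. In the striatum array of KK their mean was 7.98 (log2, both tissues normalized jointly), against 9.80 to 12.2 in the other striatum arrays and 7.14 to 8.52 in hippocampus. Over 6 hippocampal marker probes the KK array had a mean of 7.97, against at most 8.02 in the other striatum arrays and at least 8.69 in hippocampus. Its oligodendrocyte mean (10.01) lay below the other striatum arrays (at least 10.35) and its endothelial mean (9.40) above them (at most 9.31). Its microglial (8.53), choroid plexus (7.55) and interferon (8.19) means lay within their range. The tissue content of this array was not tested.

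Every Ly6 probe differed between the tissues. Ly6e was lower in striatum than in hippocampus by a factor of 2.56, Ly6h was lower by factors of 1.90 to 2.33 depending on the probe, and Ly6c1 was higher in striatum by a factor of 1.23. Among all 12775 probes tested, 36.7% were lower and 38.6% were higher in striatum, so a call by itself is not particular to these probes. At least 2-fold lower were 3.9% of all probes (3.52% were at least 2-fold higher), and 3 of the 5 Ly6 probes. Without the arrays that stand apart, described above, 2 of the 5 were (497 of all 12775 probes), and 2 with median centring (452 of all probes). The deposited hippocampus signal equalled the authors' processed values, and the striatum signal did not. Both signals are labelled non-normalized, so whether the hippocampus values were already normalized is not known. Both tissues then went through the same joint normalization. With the authors' processed values of both tissues the differences were 0.22 for Ly6c1, -1.13 for Ly6e and -1.19 to -0.99 for the Ly6h probes.

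On the scale set jointly for both tissues, Ly6e ranged from 7.91 in AXB12 to 10.55 in KK in striatum, with a median of 8.73, against 9.34 in BXA8 to 10.64 in C3H in hippocampus, with a median of 10.15. The means were 8.75 ± 0.39 (SD, n = 97) in striatum and 10.10 ± 0.26 (SD, n = 99) in hippocampus. The difference was -1.35 ± 0.05 (SE, limma, adjusted p = 1.13e-70), and Ly6e was lower in striatum in 96 of 97 strains. The exception was KK, the strain whose striatum array had low striatal markers, where Ly6e was higher in striatum by 0.51. The ranges of the tissues overlapped. Without that array the difference was -1.37.

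Ly6h gave the same direction with all of its probes. For ILMN_2748897 the striatal values ran from 7.53 in NZW to 13.32 in BTBR with a median of 12.81, against 10.85 in AXB19b to 14.16 in AXB10 with a median of 13.79 in hippocampus. The lowest value in each tissue came from an array that stands apart. Without those arrays the striatal minimum was 11.48 in BXA12 and the hippocampal minimum 13.22 in C3H. The difference was -1.03 ± 0.07 for ILMN_2748897 (adjusted p = 2.60e-33), -0.93 ± 0.06 for ILMN_1253982 (adjusted p = 1.13e-32) and -1.22 ± 0.07 for ILMN_1241465 (adjusted p = 1.05e-39; limma, ± SE). Each Ly6h probe was lower in striatum in 96 of 97 strains, and the exception was AXB19b, whose hippocampus array stands apart.

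Ly6c1 overlapped widely between the tissues. Its striatal values ran from 7.88 in SM to 11.36 in BalbcJ with a median of 10.52, against 4.79 in AXB19b to 11.11 in AXB12 with a median of 10.18 in hippocampus. The AXB19b value was the only one of Ly6c1 that was not detected. Ly6c1 was higher in striatum in 77 of 97 strains, by 0.30 ± 0.09 in the mean (limma, SE, adjusted p = 0.00099). Without the arrays that stand apart the difference was 0.29 ± 0.06 (adjusted p = 4.96e-06, with 39.9% of all probes called higher). In whole tissue, fewer cells of a type and less RNA per cell cannot be told apart. Of the 11 detected endothelial marker probes, 8 were also higher in striatum and 1 was lower, with a median difference of 0.28, against 0.01 over all probes. Slc2a1, the glucose transporter of the blood-brain barrier, was higher in striatum by 0.42 and Esam, an endothelial adhesion molecule, by 0.46, while probes of Cdh5, Tie1, Kdr and Abcb1a were detected in at most 3.06% of the arrays of either tissue. Of the 8 detected microglial probes 4 were higher in striatum and 0 were lower, and of the 9 oligodendrocyte probes 8 were higher, with a median difference of 0.72. The pericyte and mural list went the other way, with 1 of 8 detected probes higher and 6 lower and a median of -0.20. The part of these cells in the Ly6c1 difference was not tested.

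**Figure D1:**
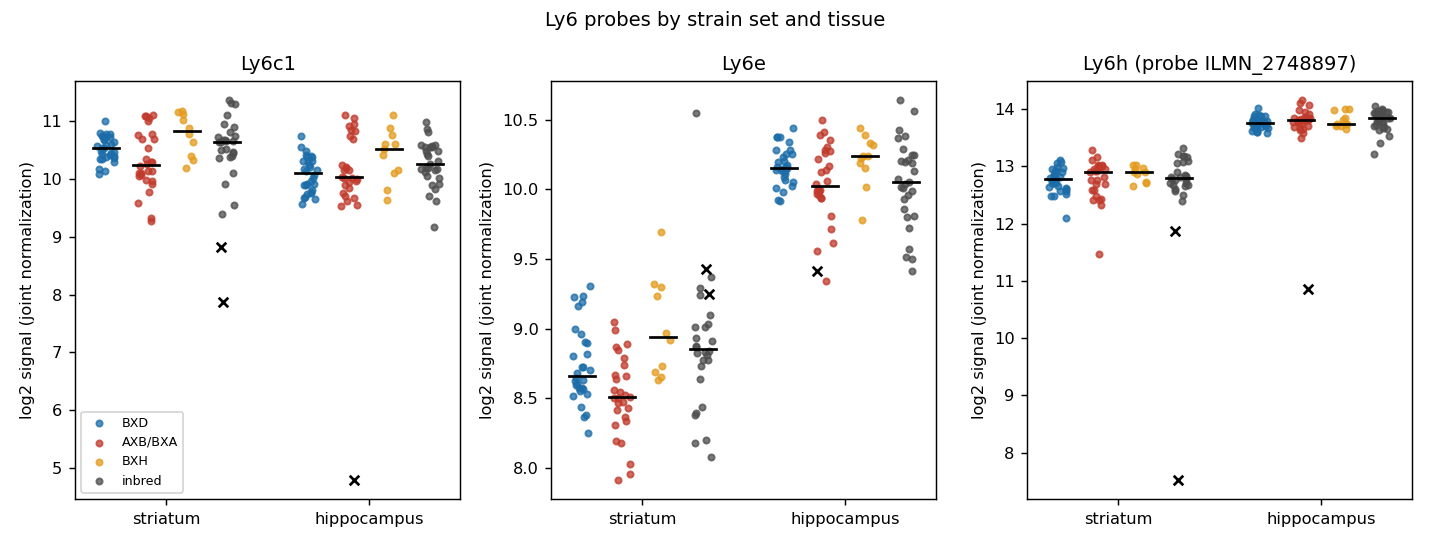
Log2 signal of Ly6c1, Ly6e and 1 Ly6h probe in striatum (left in each panel) and hippocampus (right), 1 point per strain, coloured by strain set in the order BXD, AXB/BXA, BXH and inbred. Bars are medians and crosses are the arrays that stand apart (SM and NZW in striatum, AXB19b in hippocampus). Ly6e and Ly6h lie lower in striatum, with the KK striatum array (10.55 for Ly6e) as the high point, while Ly6c1 overlaps between the tissues.

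Across strains, Ly6c1 held its order between the tissues more closely than Ly6e or Ly6h did. Over 97 strains the correlation of striatum with hippocampus was r = 0.41 (t test of r, adjusted p = 0.00014 over all 11746 probes). The permutation p of this r was 0.00448, or 0.0545 adjusted over 25 relations of the Ly6 probes, which did not pass. Spearman's rho was 0.70 (permutation p = 1e-05, the smallest that 100000 permutations can give). The values of AXB19b, SM and NZW pulled r below rho. Without these 3 strains r was 0.71 and rho 0.70 (both permutation p = 1e-05), and r was 0.68 after the 2 farthest strains, AXB12 and I, were also left out. The r of Ly6c1 then lay at the 91.3rd percentile of all probes. A positive correlation past the threshold was common, with 43.1% of all probes with every strain (0.111% were negative) and 57.9% without the arrays that stand apart.

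The relation of Ly6c1 between the tissues was computed within each set as part of 25 relations (5 probes, overall and in 4 sets), without the arrays that stand apart. It was r = 0.81 in AXB/BXA (n = 27, adjusted permutation p = 8e-05), 0.79 in BXH (n = 10, adjusted permutation p = 0.0409) and 0.81 in the inbred strains (n = 26, adjusted permutation p = 8e-05). In BXD it was 0.33 (n = 30, adjusted permutation p = 0.199). Spearman's rho was 0.76 in AXB/BXA, 0.78 in BXH (adjusted permutation p = 0.0687, past the threshold for r only), 0.66 in the inbred strains and 0.25 in BXD. Without the 2 farthest strains of each set r was 0.79 in AXB/BXA, 0.75 in BXH, 0.68 in the inbred strains and 0.20 in BXD. Whether the sets differed in r was not tested. In BXD Ly6h ILMN_1241465 had r = 0.37 and rho = 0.27, and ILMN_2748897 had 0.31 and 0.33. There ILMN_1253982 had 0.11 and -0.02, and Ly6e 0.08 and 0.09. The adjusted permutation p of these values was at least 0.16. The range that r rests on was narrower in BXD, where the SD of Ly6c1 was 0.21 in striatum and 0.31 in hippocampus, against 0.51 and 0.50 in AXB/BXA without AXB19b in hippocampus.

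**Figure D2:**
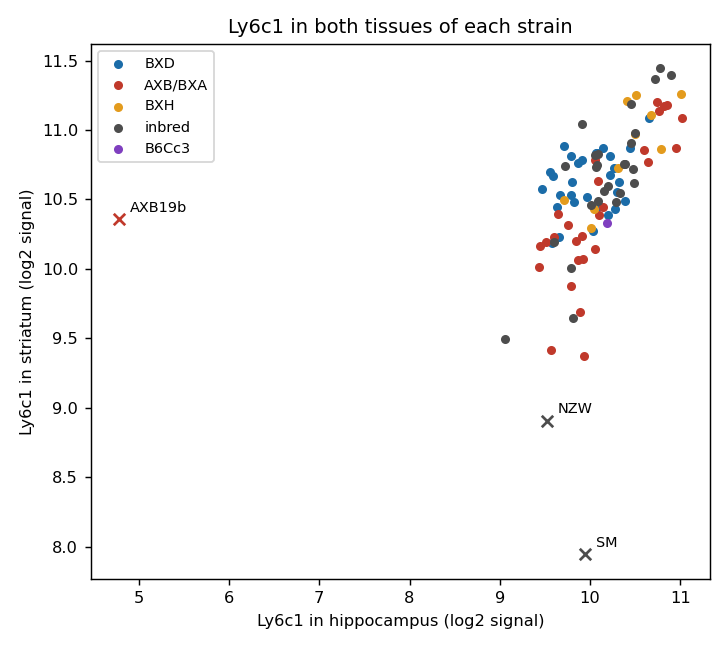
Ly6c1 log2 signal in hippocampus (x axis) against striatum (y axis), 1 point per strain for the 97 strains with both tissues, coloured by set. Crosses with names are the strains with an array that stands apart, and the other strains lie along a rising band with r = 0.71.

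For Ly6e the correlation between the tissues was r = 0.21 (n = 97, adjusted p = 0.079 over all probes), at the 53.8th percentile of all probes. Without the KK array it was 0.25 (adjusted p = 0.031 over all probes). Adjusted over the 25 relations, the permutation p of Ly6e then was 0.0762 for r and 0.114 for rho, so neither passed. For the 3 Ly6h probes r lay between -0.05 and -0.03 with every strain and between 0.13 and 0.26 without the arrays that stand apart. Of these, only ILMN_1241465 then passed the threshold over all probes (r = 0.26, adjusted p = 0.024). Adjusted over the 25 relations its permutation p was 0.068.

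The inbred strains give the order of levels outside the crosses. Ly6c1 was highest in BalbcJ (11.44), NZB (11.40) and AJ (11.37) in striatum, and the same 3 strains led in hippocampus with 10.77, 10.89 and 10.72 (log2, normalized within each tissue). At the low end, leaving aside SM and NZW in striatum, strain I had 9.50 in striatum and 9.06 in hippocampus. BTBR had 9.65 in striatum and 9.81 in hippocampus. The top 3 strains and the lowest one were shared by the tissues.

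Ly6e had another order. In hippocampus C3H (10.55) and BUB (10.47) were highest and NOD (9.32), AJ (9.40), SEA (9.42) and BalbcJ (9.47) lowest. In striatum KK (10.64) was highest, followed, with the SM array left aside, by FVB (9.47) and C3H (9.39), and RIII (8.15), NZB (8.26) and NOD (8.28) lowest. C3H was near the top and NOD near the bottom in both tissues, while BalbcJ stood at 9.13 in striatum, above the inbred median of 8.94.

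Ly6h varied little in hippocampus. Without AXB19b the SD over 98 strains was 0.15 to 0.18 (log2) for its probes, against 0.25 for Ly6e and 0.42 for Ly6c1. The 2 hippocampus arrays of B6Cc3 differed by 0.02, 0.30 and 0.10 for ILMN_1241465, ILMN_1253982 and ILMN_2748897. The strains at either end of the order below are therefore uncertain. C3H had the lowest hippocampal value of ILMN_2748897 (13.17) and CE the highest among the inbred strains (14.03). In striatum, BTBR was highest with 13.36. BXA12 was the lowest array of all the RI strains for each Ly6h probe in striatum, with 9.65, 11.35 and 11.55, and it was also lowest for Ly6c1 there (9.37) and lowest of its set in the striatal marker mean (11.05).

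The RI sets were compared with limma in each tissue. In striatum Ly6e was higher in BXH than in AXB/BXA by 0.51 ± 0.13 (log2, SE, adjusted p = 0.0030), a factor of 1.42. Its values ran from 8.71 to 9.79 with a median of 9.03 in BXH (n = 10), against 7.98 to 9.14 with a median of 8.59 in AXB/BXA (n = 28), so the sets overlapped. Ly6e was also higher in BXD than in AXB/BXA, by 0.23 ± 0.10 (adjusted p = 0.047). The BXD values ran from 8.33 to 9.40 with a median of 8.75 (n = 30). This call lay at the threshold, and was not made without background correction (adjusted p = 0.057), with median centring (0.145), without the filter on dim probes (0.077) or without AXB15, AXB19 and AXB19b (0.053). These 2 comparisons share the AXB/BXA strains.

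Higher calls were common in striatum, with 11.8% of all probes for BXH against AXB/BXA (12.6% lower) and 18.2% for BXD against AXB/BXA (19.7% lower). For BXH against AXB/BXA 1387 probes were higher and 1483 lower, against 1815 and 1275 with the authors' processed values. For Ly6c1, the difference of BXH from AXB/BXA in striatum was 0.46 ± 0.19 with adjusted p = 0.064. It passed without the SM and NZW arrays, which enter through the shared spread (adjusted p = 0.013, with 16.1% of all probes called higher), and with the authors' processed values (adjusted p = 0.030). No Ly6h probe was called between RI sets in striatum, and no Ly6 probe in BXD against BXH, where 2.09% of all probes were higher and 3.34% lower. In hippocampus no Ly6 probe was called, with limma's unadjusted p = 0.0337 for Ly6e in BXD against AXB/BXA (0.14 ± 0.07) and 0.0428 in BXH against AXB/BXA (0.19 ± 0.09). There 7.15% of all probes were called higher and 5.28% lower for BXD against AXB/BXA, 3.23% higher and 2.79% lower for BXH against AXB/BXA, and 0.579% higher and 0.494% lower for BXD against BXH.

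**Figure D3:**
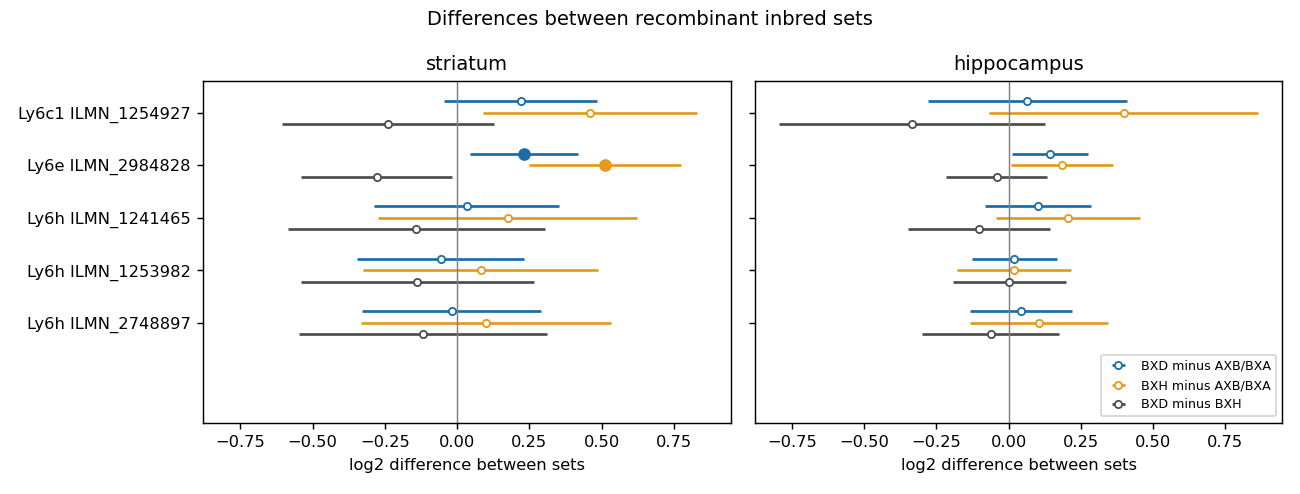
Log2 differences between RI sets for the 5 Ly6 probes in striatum (left) and hippocampus (right), with 95% intervals from the limma fit. Filled points passed an adjusted p of 0.05, which were Ly6e in BXH and in BXD against AXB/BXA in striatum (0.51 and 0.23).

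Striatal marker signal ran opposite to Ly6e in striatum. Without the arrays that stand apart, Ly6e correlated with the mean of the 5 striatal marker probes at r = -0.65 over 95 strains, and at -0.51 without KK as well. The single probes gave -0.33 to -0.70, the strongest being Drd1, a dopamine receptor of medium spiny neurons. Within sets r was -0.62 in BXD, -0.38 in AXB/BXA, -0.32 in BXH and -0.75 in the inbred strains (-0.32 without KK). The marker mean itself was lower in BXH (11.22 ± 0.65, SD, n = 10) and in BXD (11.67 ± 0.27, n = 30) than in AXB/BXA (11.83 ± 0.26, n = 28), the reverse of the order of Ly6e in these sets. In BXH it ranged from 9.88 in BXH22 to 11.99. These correlations are descriptions across arrays that share their dissection and normalization, and the part of the marker signal in the Ly6e set differences was not tested. The 3 detected probes of the neuron list varied in their r with Ly6e. Stmn2, a neuronal gene of axon growth, had 0.62 in striatum and -0.11 in hippocampus. Syt1 had 0.38 and 0.07, and Rbfox3 0.10 and -0.14, in the same order. Over all 95 strains the r of the marker mean was 0.08 with Ly6c1 and -0.05 to 0.09 with the Ly6h probes, but the sets differed in sign. In BXH r was -0.54 for Ly6c1 and -0.73, -0.71 and -0.73 for Ly6h ILMN_1241465, ILMN_1253982 and ILMN_2748897, while in AXB/BXA it was 0.39 for Ly6c1 and 0.30 to 0.45 for Ly6h.

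**Figure D4:**
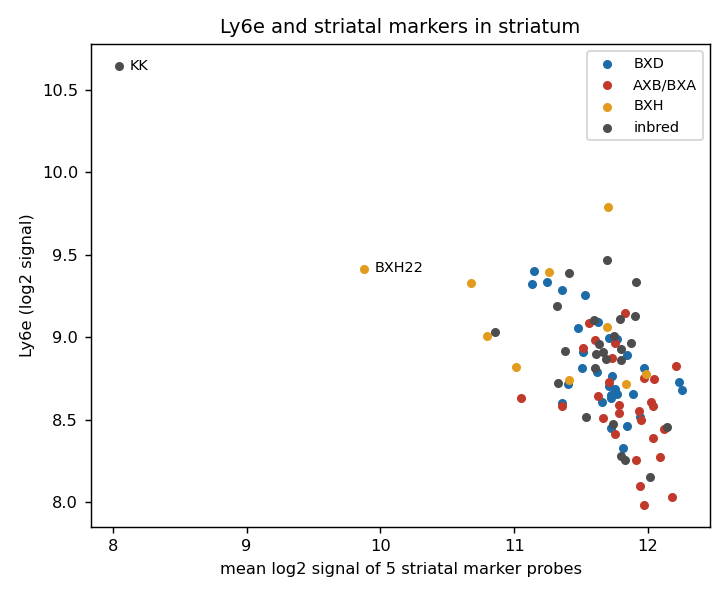
Mean log2 signal of 5 striatal marker probes (x axis) against Ly6e log2 signal (y axis) in striatum, 1 point per strain for 95 strains without SM and NZW, coloured by set. Ly6e falls as the marker mean rises (r = -0.65), with KK and BXH22 at the low end of the markers.

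The difference between the tissues of the set differences was tested as an interaction. With every array no Ly6 probe passed, and of all probes 7.98% were called higher and 12.8% lower for BXD against AXB/BXA, 6.25% and 7.84% for BXH against AXB/BXA, and 0.281% and 0.579% for BXD against BXH. For Ly6c1 in BXD against AXB/BXA it was 0.15 ± 0.18 (limma, adjusted p = 0.607). This value depended on the AXB19b hippocampus array, as it was 0.34 ± 0.08 without the arrays that stand apart (adjusted p = 0.00038, with 16.7% of all probes called higher) and 0.35 ± 0.11 without AXB15, AXB19 and AXB19b (adjusted p = 0.011). On the joint scale Ly6c1 was higher in striatum than in hippocampus in 27 of 30 BXD strains, by 0.44 in the median, and in 18 of 28 AXB/BXA strains, by 0.14 in the median. For Ly6e in BXH against AXB/BXA the interaction was 0.33 ± 0.15 (adjusted p = 0.126), so the call in striatum and its absence in hippocampus do not show that the tissues differed.

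Within AXB/BXA the Ly6c1 levels in hippocampus had a gap between a lower and an upper group, and striatum did not repeat this gap. Without AXB19b, 19 strains lay between 9.43 and 10.14 and 8 strains (AXB2, AXB12, AXB19, AXB23, AXB24, BXA1, BXA8 and BXA14) between 10.60 and 11.02. The gap of 0.46 between them, as a share of the SD, was larger than that of 97.0% of probes in the same strains. These groups were defined from the values, so they are described with no test. In striatum the same 8 strains lay between 10.77 and 11.20 and the 19 others between 9.37 and 10.78, so the ranges overlapped slightly. The largest striatal gap, over all 28 strains, was 0.22 and lay elsewhere, from 10.87 to 11.09 with 5 strains above it. As a share of the SD it was at the 47.9th percentile of probes. The lower edge of 10.77 is the striatum array of AXB19, whose hippocampus array matched the striatum array of AXB15 (10.64 for Ly6c1) better than its own. A mixture of 2 levels, which required a drop of over 10 in the Bayesian information criterion, was not called for any Ly6 probe in either tissue, over all strains or within AXB/BXA. Over all strains 8.61% of all probes were called in striatum and 6.1% in hippocampus, and within AXB/BXA 2.11% in striatum and 1.59% in hippocampus (2.24% without AXB19b). Ly6c1 in AXB/BXA hippocampus without AXB19b came just short, with a drop of 9.17, levels 4.90 SD apart and 8 strains in the smaller level.

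The spread of Ly6c1 was wider in AXB/BXA than in BXD in both tissues. Without the arrays that stand apart the SD ratio of AXB/BXA over BXD was 2.39 in striatum and 1.63 in hippocampus, at the 98.8th and 91.7th percentile of all probes, whose median ratios were 1.05 and 1.09. For Ly6e the ratio was 1.05 in striatum and 2.05 in hippocampus (97.4th percentile). For the Ly6h probes it was 1.67 to 1.74 in striatum, where the set holds the low BXA12 array, and 1.13 to 1.46 in hippocampus.

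RI strains were set against the single arrays of their parents. For Ly6c1 in hippocampus, 28 of 30 BXD strains lay below both parents, which had 10.45 (B6) and 10.39 (DBA). At least as many strains on 1 side of the parents were seen for 2.29% of all probes. In striatum 20 of 30 BXD strains lay below both parents (11.19 in B6 and 10.76 in DBA), and 20.1% of all probes had as many. Of the AXB/BXA strains, 27 of 28 lay below both parents in striatum (11.19 in B6 and 11.37 in AJ; 4.81% of all probes had as many), and 19 of 27 did in hippocampus, where 6 lay above both (10.45 in B6 and 10.72 in AJ; 16.4% of all probes had as many). For Ly6h in BXH striatum 8, 8 and 9 of 10 strains lay above both parents with ILMN_1241465, ILMN_1253982 and ILMN_2748897 (10.7%, 10.7% and 5.17% of all probes had as many). In BXH hippocampus the Ly6h probes disagreed. For ILMN_1241465 all 11 BXH strains lay above both parents (1.80% of all probes had as many), while 3 of 11 did for ILMN_1253982 and 5 of 11 for ILMN_2748897. Since each parent is 1 array, the error of these counts is not known.

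Among the members, the 3 Ly6h probes moved together. Over 95 strains in striatum their pairwise r was 0.84 to 0.91, and over 98 strains in hippocampus 0.63 to 0.67, without the arrays that stand apart (permutation p adjusted over 20 pairs = 3e-05 each). With every array these values were 0.97 to 0.98 and 0.90 to 0.92. Ly6c1 and Ly6h also seemed to move together with every array, with r of 0.37 to 0.44 in striatum and 0.62 to 0.73 in hippocampus. Without the arrays that stand apart these r were 0.11 to 0.17 in striatum and -0.13 to 0.15 in hippocampus, with adjusted permutation p from 0.24 to 0.459, so the relation rested on those arrays.

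Ly6c1 and Ly6e ran opposite to each other in hippocampus. With every array r was 0.01 and rho -0.25 (adjusted permutation p = 0.956 and 0.038), and without AXB19b r was -0.36 and rho -0.29 (n = 98, adjusted permutation p = 0.00111 and 0.0117). After the 2 strains farthest in Ly6c1, AXB12 and I, were left out, r was -0.37. By set, r was -0.72 in AXB/BXA (n = 27, permutation p adjusted over 80 relations within sets = 0.000246), -0.30 in BXH, -0.22 in the inbred strains and 0.10 in BXD, where none of the other 3 passed. Whether the sets differed was not tested. The 8 AXB/BXA strains with upper Ly6c1 levels had Ly6e between 9.24 and 9.89 with a median of 9.66 in hippocampus, and the 19 others between 9.84 and 10.40 with a median of 10.06. In striatum the relation was not seen, with r = -0.11 with every array and 0.04 without SM and NZW (adjusted permutation p = 0.327 and 0.888), and -0.10 within AXB/BXA.

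**Figure D5:**
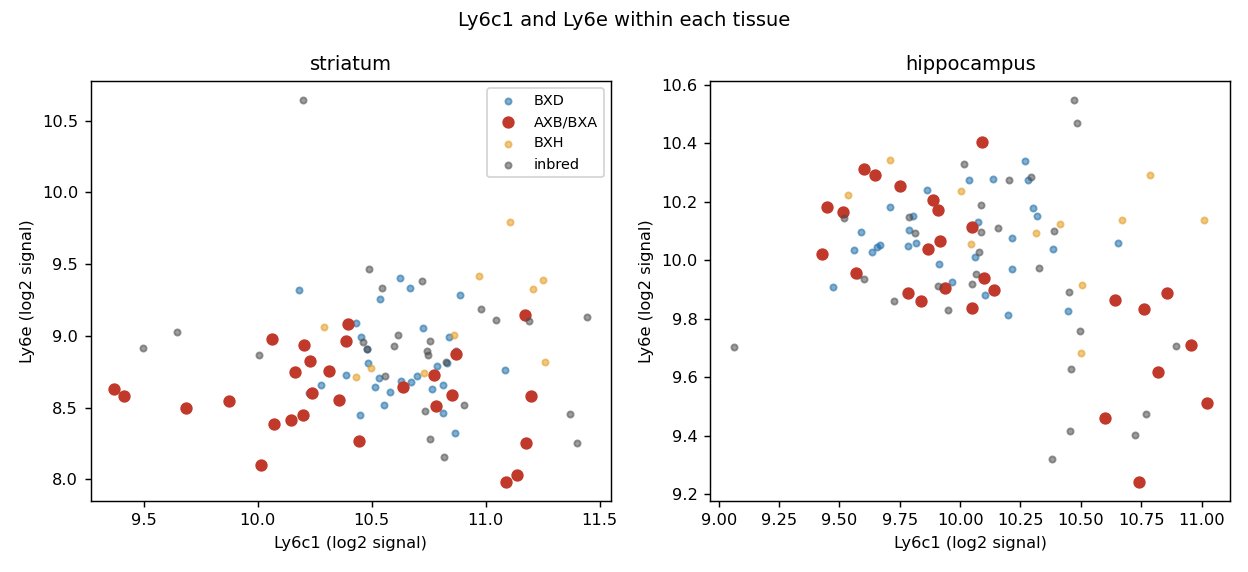
Ly6c1 (x axis) against Ly6e (y axis), log2 signal normalized within each tissue, in striatum (left) and hippocampus (right), 1 point per strain without the arrays that stand apart, with AXB/BXA enlarged. In hippocampus the AXB/BXA strains fall from upper left to lower right (r = -0.72), and in striatum they do not (r = -0.10).

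Ly6e and Ly6h showed no common course over all strains without the arrays that stand apart (r from 0.03 to 0.14 in striatum and from -0.01 to 0.03 in hippocampus). Of 56 relations between probes of different genes within sets, 5 passed, among them the r of Ly6c1 with Ly6e in AXB/BXA hippocampus given above. In BXD striatum r of Ly6e was 0.50 with ILMN_1241465 (adjusted permutation p = 0.0161), while the other Ly6h probes gave 0.35 and 0.25 (adjusted permutation p = 0.145 and 0.356). In the inbred striatum it was -0.52 with ILMN_2748897 and -0.50 with ILMN_1253982 (adjusted permutation p = 0.0193 and 0.0297), and -0.45 with ILMN_1241465 (adjusted permutation p = 0.0546). Once KK and RIII were left out the values that passed there became -0.28 and -0.26. In BXH striatum r of Ly6c1 with ILMN_2748897 was 0.79 (n = 10, adjusted permutation p = 0.0297), while its rho did not pass (adjusted permutation p = 0.173). The other Ly6h probes there gave 0.51 and 0.62 (adjusted permutation p = 0.291 and 0.145).

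Of the wider Ly6/uPAR family, 26 of 33 listed genes had a probe, and 8 probes of 7 genes were detected. Higher in striatum were Cd59a (0.80) and Cd59b (0.95), which protect cells from complement, and Lypd6b (0.14, adjusted p = 0.032). Lower in striatum were Lypd1 (-0.71), a family member of neurons, Lypd6 (-0.36) and Ly6g6e. The Ly6g6e probe was detected in 27.6% of striatum arrays and 95% of hippocampus arrays, so its fitted difference of -1.51 rests on striatal values mostly at background and is not an exact size. Lynx1, a brake on nicotinic receptors, had 2 probes with differences of 0.02 and -0.02 that did not pass (adjusted p = 0.635 and 0.857). These counts of 3 and 3 of 8 stand against 38.6% and 36.7% of all probes. The family members Ly6d, Ly6f, Ly6i, Ly6k and Ly6m had probes that were detected in none of the arrays.

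Among the 10 genes on either side of the cluster and those within it, 13 other genes had 22 probes. Those between Ly6e and Ly6h, for Ly6f and Ly6i, were detected in no array, so no other gene within the cluster could be compared. Detected in both tissues were 6 probes, all of the flanking genes Zfp41, Top1mt, Rhpn1 and Zc3h3. Their r between tissues ran from 0.02 to 0.20 with every strain, below the 0.41 of Ly6c1. Without the arrays that stand apart the neighbour probes ran from 0.05 (Rhpn1) to 0.37 (Zc3h3 ILMN_2850170), against 0.71 for Ly6c1. The r of the neighbour probes with Ly6c1 ran from -0.33 to -0.09 in striatum and from -0.12 to 0.10 in hippocampus without the arrays that stand apart.

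Interferon-responsive genes had r of both signs with the Ly6 probes. Over 14 probes the median r with Ly6e was 0.17 in striatum and 0.05 in hippocampus, and with Ly6c1 0.04 in striatum and 0.13 in hippocampus. With the Ly6h probes it lay between -0.0081 and 0.048 in striatum and between -0.033 and 0.036 in hippocampus, against medians of -0.03 to 0.01 over all probes. The largest were Ifitm3 with Ly6c1 in hippocampus (0.42), B2m with Ly6e in striatum (0.35) and Ifit3 with Ly6h ILMN_1241465 in striatum (0.30). These are descriptions over strains, without the arrays that stand apart. For the 9 endothelial probes the median r with Ly6c1 was -0.00062 in striatum and 0.036 in hippocampus, with Esam highest (0.21 and 0.34).

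The probes of other genes most like each member were ranked by the lower |r| of both tissues with the same sign. With every array the r values were up to 0.91, for Atp6v0d1 with Ly6h in hippocampus, and rested in part on the arrays that stand apart. Without them, Ly6c1 was most like Acaa2, a mitochondrial thiolase of fatty acid oxidation (r = 0.54 in striatum and 0.48 in hippocampus), followed by Atraid (0.49 and 0.48) and Edem2 (0.48 and 0.46), with Ckap5 opposite (-0.46 and -0.51). Ly6e was most like Camk2g, a calmodulin-dependent kinase (0.55 and 0.43), and Syngr1, a synaptic vesicle protein also encoded on chromosome 15 (0.51 and 0.42). Ly6h was most like Rtn1, a reticulon of neurons (0.62 and 0.58 with ILMN_1241465), Marcksl1 (0.58 and 0.53 with ILMN_2748897) and Fundc1 (0.56 and 0.52 with ILMN_1253982). All of these were ranked over 95 strains in striatum and 98 in hippocampus. Between the lists with and without the arrays that stand apart, Syngr1 for Ly6e and Atp6v0d1 for Ly6h were shared.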

How the data were processed

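The deposited tables hold probe signal intensities with their detection p-values, exported by the authors from BeadStudio, and per the methods the arrays were normalized by rank invariance. All hippocampus signal intensities equal the authors' processed table within a relative tolerance of 0.001, against 0.74% of those in striatum. Both sets of signals are labelled non-normalized, so whether the hippocampus values were already normalized is not known. The version of BeadStudio is not given in the sources used here. RefSeq gene positions were used for the order of the Ly6 genes, the extent of the cluster and its neighbours. Arrays carry no depth. Their number limits the precision.

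Background was corrected from the deposited signal intensities and detection p-values with limma 3.58.1 (normexp, offset 16), followed by quantile normalization and log2, within each tissue or, for the comparison of tissues, jointly. Probes were kept if their detection p was under 0.01 in 20% or more of arrays, in both tissues (11746) or, for the tissue comparison, in either (12775), and were tested with limma and Benjamini-Hochberg adjustment at 0.05. For the Ly6 probes, correlations between tissues and among these probes had two-sided permutation tests (100000). The p of a correlation between tissues that was adjusted over all probes came from a t test of r. All other correlations are descriptions without a test. Strains were treated as exchangeable, with no correction for relatedness. The limma step was tested on simulated data: with known shifts of 0.5 and 1.0 (log2) added to the comparison of BXD with AXB/BXA in striatum, over 11746 probes, 80% and 100% were recovered. Alternatives were the authors' processed values, no background correction, median centring, no filter, strain as a block, and leaving out arrays. Members and gene lists were chosen with earlier results of these data known. The text names the members, detected genes of the wider family, neighbours and interferon genes, and the 5 probes most like each member. Gene names came from the array annotation and RefSeq. Probe sequences were not read, and whether strains differ within the probe targets was not tested.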

Additional observations from a re-analysis of the deposited data

Results flagged for a closer look

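In the 5 group and probe combinations small enough to be examined for a single far sample, 0 samples lay past the limit of Dixon's test.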

How the results depend on the processing

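Of 380 single values recomputed under an alternative, 313 kept their direction and their side of the threshold, 12 lost the call, 6 gained one and 49 changed sign. All 5 tissue differences kept direction and call under every alternative run for them, from 0.22 to 0.38 for Ly6c1 and from -1.37 to -1.13 for Ly6e. With strain as a block, which pairs the tissues by strain name, the differences were 0.30 for Ly6c1, -1.36 for Ly6e and -1.22, -0.93 and -1.03 for the Ly6h probes, and the block changed no call. Leaving out either B6Cc3 array gave 0.30 for Ly6c1 and -1.36 to -1.35 for Ly6e. Each strain is a single array, the signals carry no depth, strain relatedness was not modelled, and a p-value measures only the spread between these arrays. The cause of the changes below was not tested.

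The number of Ly6 probes called for BXD against AXB/BXA in striatum was 1, and 0 with median centring, without background correction, without the filter on dim probes, or without AXB15, AXB19 and AXB19b. For BXH against AXB/BXA in striatum it was 1, and 2 with the authors' processed values or without the arrays that stand apart. For the interaction of BXD against AXB/BXA with tissue it was 0, and 1 without the arrays that stand apart or without AXB15, AXB19 and AXB19b. For the correlation between tissues it was 1, and 2 without the arrays that stand apart or without the KK striatum array. Pairs of Ly6 probes past the threshold fell to 3 in striatum, against 6 with every array, and to 4 in hippocampus, against 9, without the arrays that stand apart.

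With the authors' processed values these differences changed sign. In hippocampus BXD against AXB/BXA became -0.022 for Ly6c1 and -0.00053 for Ly6h ILMN_1253982, BXH against AXB/BXA became -0.047 for ILMN_1253982, and BXD against BXH became 0.0082 for ILMN_2748897. In striatum BXD against AXB/BXA became 0.011 for ILMN_2748897. The interaction of BXH against AXB/BXA became 0.13 for Ly6c1, 0.027 for ILMN_1241465 and 0.13 for ILMN_2748897, and r of Ly6c1 with Ly6e in hippocampus became -0.098. Without background correction that r was -0.086, and BXD against AXB/BXA in hippocampus was -0.0023 for Ly6c1. With median centring BXD against AXB/BXA in striatum was -0.024 for ILMN_1241465, and r between tissues was 0.026 for ILMN_1253982.

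Without AXB15, AXB19 and AXB19b, BXD against AXB/BXA in hippocampus became -0.10 for Ly6c1, -0.050 for ILMN_1253982 and -0.058 for ILMN_2748897, and BXH against AXB/BXA there became -0.051 for ILMN_1253982. In striatum BXD against AXB/BXA was 0.0061 for ILMN_2748897. The interaction of BXD against AXB/BXA became 0.075, 0.031 and 0.059 for ILMN_1241465, ILMN_1253982 and ILMN_2748897, and that of BXH against AXB/BXA 0.18 for Ly6c1, 0.11 for ILMN_1241465 and 0.12 for ILMN_2748897. The r between tissues became 0.027 for ILMN_1241465 and 0.063 for ILMN_1253982.

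Without the arrays that stand apart, BXD against AXB/BXA in hippocampus became -0.13 for Ly6c1, -0.0080 for ILMN_1241465, -0.064 for ILMN_1253982 and -0.066 for ILMN_2748897, and BXH against AXB/BXA there -0.066 for ILMN_1253982 and -0.0041 for ILMN_2748897. The interaction of BXD against AXB/BXA became 0.057, 0.018 and 0.051 for ILMN_1241465, ILMN_1253982 and ILMN_2748897, and that of BXH against AXB/BXA 0.17 for Ly6c1, 0.087 for ILMN_1241465 and 0.11 for ILMN_2748897. The r between tissues became 0.26, 0.13 and 0.19 for ILMN_1241465, ILMN_1253982 and ILMN_2748897. In striatum r of Ly6e became 0.035 with Ly6c1 and 0.14, 0.043 and 0.026 with ILMN_1241465, ILMN_1253982 and ILMN_2748897. In hippocampus r of Ly6c1 became -0.36 with Ly6e, -0.10 with ILMN_1253982 and -0.13 with ILMN_2748897, and r of Ly6e with ILMN_2748897 became -0.010.

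Over all probes, those at least 2-fold apart between tissues numbered 948, and 439 with the authors' processed values or 465 without background correction. Without the arrays that stand apart, called probes in hippocampus numbered 2522, against 1460 with every array, for BXD against AXB/BXA, 1616, against 707, for BXH against AXB/BXA, and 266, against 126, for BXD against BXH. The interactions in the same order had 4144, against 2435, 3180, against 1655, and 366, against 101. Without AXB15, AXB19 and AXB19b, BXH against AXB/BXA in hippocampus had 1372, BXD against BXH in hippocampus 261, and its interaction 228. With median centring BXD against BXH in striatum had 422, against 638. The split into higher and lower calls was 840 and 620 for BXD against AXB/BXA in hippocampus, and 1075 and 350 with median centring. For BXH against AXB/BXA in hippocampus it was 379 and 328, and 395 and 156 with median centring or 280 and 422 with the authors' processed values. For the interactions it was 937 and 1498 for BXD against AXB/BXA and 734 and 921 for BXH against AXB/BXA, and 1306 and 1168, and 1102 and 632, with the authors' processed values.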
